A study of Mus musculus with 52 samples.

Results

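Neutrophil-rich and neutrophil-poor tumours were compared in 30 of 52 orthotopic mouse mammary tumours, 15 of each kind. Each tumour received a score, the mean of log2(TPM + 1) over S100a8, S100a9 and Csf3r, where TPM is the authors' transcript abundance, scaled for gene length and depth. S100a8 and S100a9 encode the paired calcium-binding proteins that fill the neutrophil cytosol, and Csf3r encodes the receptor for granulocyte colony-stimulating factor. Within each of the 6 labelled groups of n tumours, the n/3 tumours of highest score, rounded down, were taken as neutrophil-rich and as many of lowest score as neutrophil-poor. The other 22 tumours were left out of that comparison. The classes were thus set by measured values, and the levels of S100a8, S100a9 and Csf3r describe the choice and support nothing.

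All tumours grew from 100000 cells of 4T1, a mouse mammary carcinoma line, placed in the mammary fat pad of Balb/C mice. Hosts were young, labelled 8 to 10 weeks old, or aged, labelled over 12 months old. The protocol text of the labels instead gives 12 weeks as the upper age of the young hosts. Each host was given 1 antibody intraperitoneally 3 times, on day 7, day 10 and day 13, at 200 µg each time. The antibodies were anti-PD-L1 (clone 10F.9G2), anti-CTLA4 (clone 9D9) or an isotype control (clone LTF-2). The neutrophil-rich class held 2 of 7 young isotype, 3 of 10 young anti-PD-L1, 4 of 12 young anti-CTLA4, 2 of 7 aged isotype, 2 of 8 aged anti-PD-L1 and 2 of 8 aged anti-CTLA4 tumours, and the neutrophil-poor class held the same numbers. The tumours of a group carry biological replicate numbers and no name of an animal, so every spread given here is the spread between libraries. RNA came from whole tumours, in which more cells of a type and more RNA per cell cannot be told apart.

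The score ran from 6.44 to 9.06 with a median of 7.94 in the neutrophil-rich class, from 4.85 to 6.89 with a median of 5.80 in the neutrophil-poor class, and from 5.44 to 8.54 in the 22 tumours left out. The classes overlapped on the pooled scale because the ranking was made within groups. In young isotype the tumours just inside and just outside the neutrophil-rich class scored 6.91 and 6.89. In aged anti-CTLA4 they scored 6.49 and 6.48, in aged anti-PD-L1 the tumours just inside and just outside the neutrophil-poor class scored 5.4 and 5.44, and in young anti-PD-L1 they scored 6.27 and 6.83. The mean gap between classes was 1.63, 2.05 and 2.39 in young isotype, anti-PD-L1 and anti-CTLA4 and 2.11, 1.27 and 1.31 in aged isotype, anti-PD-L1 and anti-CTLA4. S100a8 had a median of 508 TPM in the neutrophil-rich and 111 TPM in the neutrophil-poor class, S100a9 908 and 172 TPM, and Csf3r 17.5 and 8.44 TPM.

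**Figure D1:**
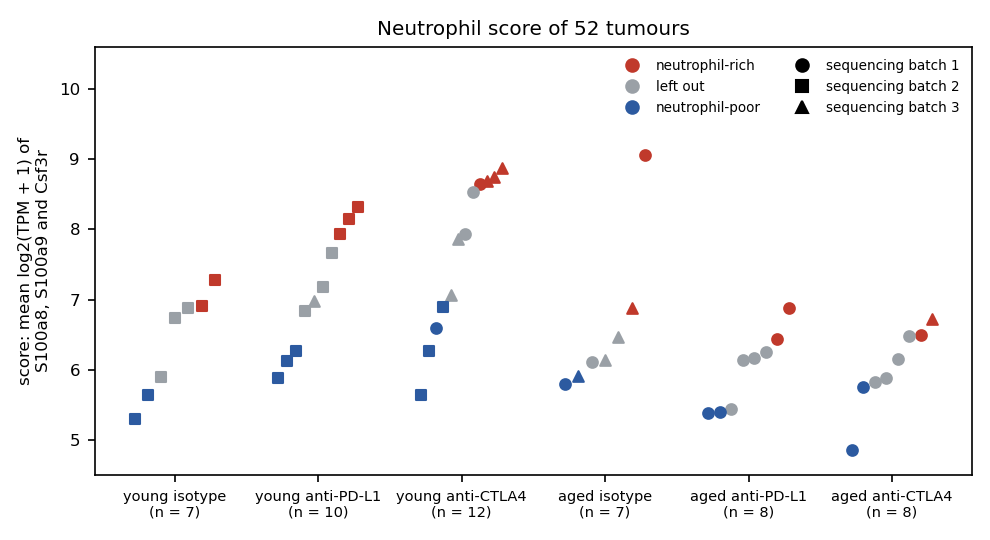
Score of each of the 52 tumours (vertical axis, mean log2(TPM + 1) of S100a8, S100a9 and Csf3r) by labelled group, ordered by score within a group. Red points are the 15 neutrophil-rich, blue the 15 neutrophil-poor and grey the 22 left-out tumours, and shapes give the sequencing batch. Aged isotype replicate 7 stands at 9.06, with the next tumour of its group at 6.87.

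A pair of features of these libraries touched the results. Aged isotype replicate 7, in the neutrophil-rich class, held 3463 TPM of S100a8 and 4500 TPM of S100a9 against 314 and 410 TPM in the next tumour of its group, while its Csf3r, at 8.81 TPM, lay near the median of the neutrophil-poor class. Young anti-CTLA4 replicate 8, among the tumours left out, held 1802 TPM of S100a8 and 9.22 TPM of Csf3r, a like pairing in TPM only. In CPM, a library's share of counts scaled to a common total, its Csf3r stood at 44.7. The median of the other left-out tumours was 23.3 CPM. Aged isotype replicate 7 held 24.9 CPM of Csf3r, against a median of 24.5 CPM over all other tumours. In young anti-CTLA4 the class also followed the sequencing batch: of its 4 neutrophil-rich tumours 1 came from batch 1 and 3 from batch 3, and of its 4 neutrophil-poor tumours 1 came from batch 1 and 3 from batch 2. Class and batch cannot be told apart among those 6 tumours of batches 2 and 3. Over all groups, the neutrophil-rich class held 5 tumours of each of batches 1, 2 and 3, and the neutrophil-poor class held 6, 8 and 1. Sequencing depth was 14678285 to 53778370 counts in neutrophil-rich libraries (median 22504211) and 9549847 to 46165114 in neutrophil-poor ones (median 18504940). Results are given below with and without aged isotype replicate 7 or young anti-CTLA4 where these changed them.

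Neutrophils are short-lived granulocytes made in the bone marrow under granulocyte colony-stimulating factor and are drawn into tissue by chemokines that bind CXCR2. As they mature they first make the enzymes of primary granules, such as elastase and myeloperoxidase. Proteins of secondary granules, such as the cathelicidin Camp, follow, and receptors of the mature cell, such as CXCR2, come last. 4T1 tumours are known for a strong rise of granulocytes in blood and spleen of their hosts. In mice, neutrophils also make large amounts of stefin A proteins, small inhibitors of cysteine proteases encoded by a cluster of closely related genes on chromosome 16.

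The promoters below belong to genes on which the results turn. They were taken from RefSeq on GRCm38.p6 and span 300 bases around each annotated start, most of them upstream, read on the gene's strand. The first 3, of S100a8 (chr3:90668821-90669120, + strand), S100a9 (chr3:90695672-90695971, - strand) and the collagenase gene Mmp8 (chr9:7558179-7558478, + strand), show the marker genes beside the gene of the neutrophil list with one of the largest differences. Capitals mark each match, on either strand, to TTGCNNAA, a form of the motif bound by C/EBP factors, or to GAGGAAG, a form of the motif bound by PU.1; both kinds of factor are known regulators of granulocyte genes.
S100a8: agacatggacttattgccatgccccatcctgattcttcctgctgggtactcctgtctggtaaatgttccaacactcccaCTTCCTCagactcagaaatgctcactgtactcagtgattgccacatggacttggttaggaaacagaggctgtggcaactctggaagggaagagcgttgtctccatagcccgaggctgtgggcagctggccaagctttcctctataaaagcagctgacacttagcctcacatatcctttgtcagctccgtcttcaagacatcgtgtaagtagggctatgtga
S100a9: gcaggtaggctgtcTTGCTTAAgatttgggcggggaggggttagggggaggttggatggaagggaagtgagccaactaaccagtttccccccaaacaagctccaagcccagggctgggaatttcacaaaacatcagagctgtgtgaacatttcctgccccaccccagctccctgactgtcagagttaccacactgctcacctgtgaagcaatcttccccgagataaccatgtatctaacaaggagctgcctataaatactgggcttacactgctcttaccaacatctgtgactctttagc
Mmp8: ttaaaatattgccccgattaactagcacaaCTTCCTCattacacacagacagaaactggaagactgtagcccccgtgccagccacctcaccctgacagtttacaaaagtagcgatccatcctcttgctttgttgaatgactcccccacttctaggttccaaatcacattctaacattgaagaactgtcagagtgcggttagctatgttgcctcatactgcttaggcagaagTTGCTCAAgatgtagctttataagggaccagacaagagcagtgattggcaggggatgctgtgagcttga
The S100a8 promoter held 1 match to GAGGAAG, the S100a9 promoter 1 match to TTGCNNAA, and the Mmp8 promoter 1 match to each. Of 32851 promoters of this length in the table, 10.8% held TTGCNNAA and 13.6% held GAGGAAG. Of the 15 leading genes described below, 14 had a promoter in the table, and 2 of these held TTGCNNAA and 2 held GAGGAAG. The counts describe letters in this window and no binding.

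The other 3 promoters belong to the stefin A genes Stfa2l1 (chr16:36156561-36156860, + strand), Stfa2 (chr16:36408314-36408613, - strand) and Stfa3 (chr16:36455343-36455642, - strand), which were higher together in the neutrophil-rich tumours. Capitals mark the longest stretch that all 3 share, of 28 bases.
Stfa2l1: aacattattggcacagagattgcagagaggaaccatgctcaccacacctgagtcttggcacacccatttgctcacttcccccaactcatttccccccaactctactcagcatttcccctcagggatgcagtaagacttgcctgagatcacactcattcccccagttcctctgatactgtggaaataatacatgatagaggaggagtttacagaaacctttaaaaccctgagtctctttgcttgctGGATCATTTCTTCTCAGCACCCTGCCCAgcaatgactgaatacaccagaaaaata
Stfa2: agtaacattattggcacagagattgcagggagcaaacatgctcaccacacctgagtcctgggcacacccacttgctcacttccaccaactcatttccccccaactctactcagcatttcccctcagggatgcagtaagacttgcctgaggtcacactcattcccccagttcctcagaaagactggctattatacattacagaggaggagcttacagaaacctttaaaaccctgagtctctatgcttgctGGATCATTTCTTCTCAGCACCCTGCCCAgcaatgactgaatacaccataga
Stfa3: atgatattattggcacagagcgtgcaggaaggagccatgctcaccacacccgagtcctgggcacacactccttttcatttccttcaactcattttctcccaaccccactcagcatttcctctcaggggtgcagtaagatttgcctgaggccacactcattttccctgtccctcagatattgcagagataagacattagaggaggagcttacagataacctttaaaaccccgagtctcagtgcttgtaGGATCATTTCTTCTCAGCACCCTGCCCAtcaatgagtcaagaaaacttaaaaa
After global alignment the promoters of Stfa2l1 and Stfa2 were identical at 90.5% of positions, those of Stfa2l1 and Stfa3 at 80.9%, and those of Stfa2 and Stfa3 at 80.9%; the promoters of S100a8 and S100a9 were identical at 48.8%. The transcripts of these genes are alike as well. Of all 75-base words in their GENCODE vM21 transcripts, 6.67% of those of Stfa2l1, 5.79% of those of Stfa2, 16.3% of those of BC100530, a gene of the same cluster, and none of those of Stfa3 also occurred in another of the 7 stefin A genes compared, so reads could be split between genes and the single levels of Stfa2l1, Stfa2 and BC100530 are uncertain.

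Neutrophil-rich tumours carried more RNA of a broad set of mature neutrophil genes. In an edgeR fit with the labelled group as a block, 775 of 17896 genes other than the markers (4.33%) were at least 2-fold higher and 139 (0.777%) at least 2-fold lower in the neutrophil-rich class. In no gene did all 15 neutrophil-rich tumours lie above, or all 15 lie below, all 15 neutrophil-poor ones. These counts describe tumours picked by measured values and carry no p. Without aged isotype replicate 7 the counts were 822 and 143, of which 744 and 130 were among the 775 and 139. Without young anti-CTLA4 they were 469 and 78, of which 384 and 52 were shared. Comparing tumours only within a group and a sequencing batch that held both classes, 23 tumours in all, gave 706 and 90, of which 541 and 61 were shared. In what follows, a log2 difference is neutrophil-rich minus neutrophil-poor, with its SE from the fit over 15 and 15 tumours, and levels are TMM-normalized CPM, the share of a library's counts scaled to a common total.

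The leading genes were those of largest log2 difference relative to SE, among genes at least 2-fold different in the same direction in at least 5 of the 6 groups. The first was Hdc, histidine decarboxylase, the enzyme that makes histamine. Its level in the neutrophil-rich class ran from 4.76 to 43.3 CPM with a median of 14.6, and in the neutrophil-poor class from 2.74 to 10.2 with a median of 5.62. It was higher in the neutrophil-rich tumours of all 6 groups, 11 of the 15 neutrophil-rich tumours lay above every neutrophil-poor one, and the log2 difference was 1.62 ± 0.17. Cxcr2, the receptor for the neutrophil-attracting CXC chemokines, ran from 6.91 to 39.7 CPM (median 15.8) against 2.40 to 8.95 (median 6.39), a log2 difference of 1.68 ± 0.19. For Cxcr2 14 of the 15 neutrophil-rich tumours lay above all neutrophil-poor ones, and the remaining one was inside their range. Mmp8, the neutrophil collagenase, ran from 2.02 to 41.7 CPM (median 9.98) against 0.429 to 4.16 (median 1.64), with a log2 difference of 2.38 ± 0.30. Its classes overlapped in 5 neutrophil-rich tumours, and it was higher in all 6 groups.

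Asprv1, an aspartic protease also known from skin, differed by 1.88 ± 0.21 on the log2 scale, with 9 of 15 neutrophil-rich tumours above all neutrophil-poor ones. Trim30b, of the TRIM family, differed by 1.88 ± 0.22. Il1f9, which encodes the cytokine IL-36 gamma, differed by 1.71 ± 0.23, with medians of 8.32 and 2.50 CPM. A pair of receptors for neutrophil attractants were in the set: Fpr2, a formyl peptide receptor, at 1.37 ± 0.18, and Ltb4r1, the leukotriene B4 receptor, at 1.22 ± 0.15. Fpr2 overlapped most among the 15 leading genes, with 5 neutrophil-rich tumours above every neutrophil-poor one. Mrgpra2b, a Mas-related G protein-coupled receptor, differed by 2.22 ± 0.31 at low levels, with medians of 2.33 and 0.535 CPM. Slfn4, a schlafen gene of myeloid cells, differed by 2.11 ± 0.31 and was higher in 5 of the 6 groups. Plac8 and Mcemp1 differed by 1.11 ± 0.14 and 1.17 ± 0.18.

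Stefin A genes were among those with large differences. Stfa2l1 ran from 1.75 to 30.6 CPM (median 10.8) in neutrophil-rich and from 0.858 to 4.69 (median 1.53) in neutrophil-poor tumours, and its log2 difference was 2.34 ± 0.29. Stfa2 ran from 0.959 to 32.1 CPM (median 2.82) against 0.214 to 1.98 (median 0.706), with a log2 difference of 2.42 ± 0.36. BC100530 ran from 1.99 to 66.3 CPM (median 5.19) against 0.214 to 3.30 (median 1.2), with 2.39 ± 0.36. All 3 were higher in the neutrophil-rich class of all 6 groups, and each neutrophil-rich tumour lay above the neutrophil-poor median. The highest values of Stfa2 and BC100530 came from aged isotype replicate 7; without it their log2 differences were 2.06 and 2.02, and that of Stfa2l1 2.15. Stfa3, next to them on the chromosome, differed by 2.23 ± 0.35, and by 1.87 without that tumour.

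**Figure D2:**
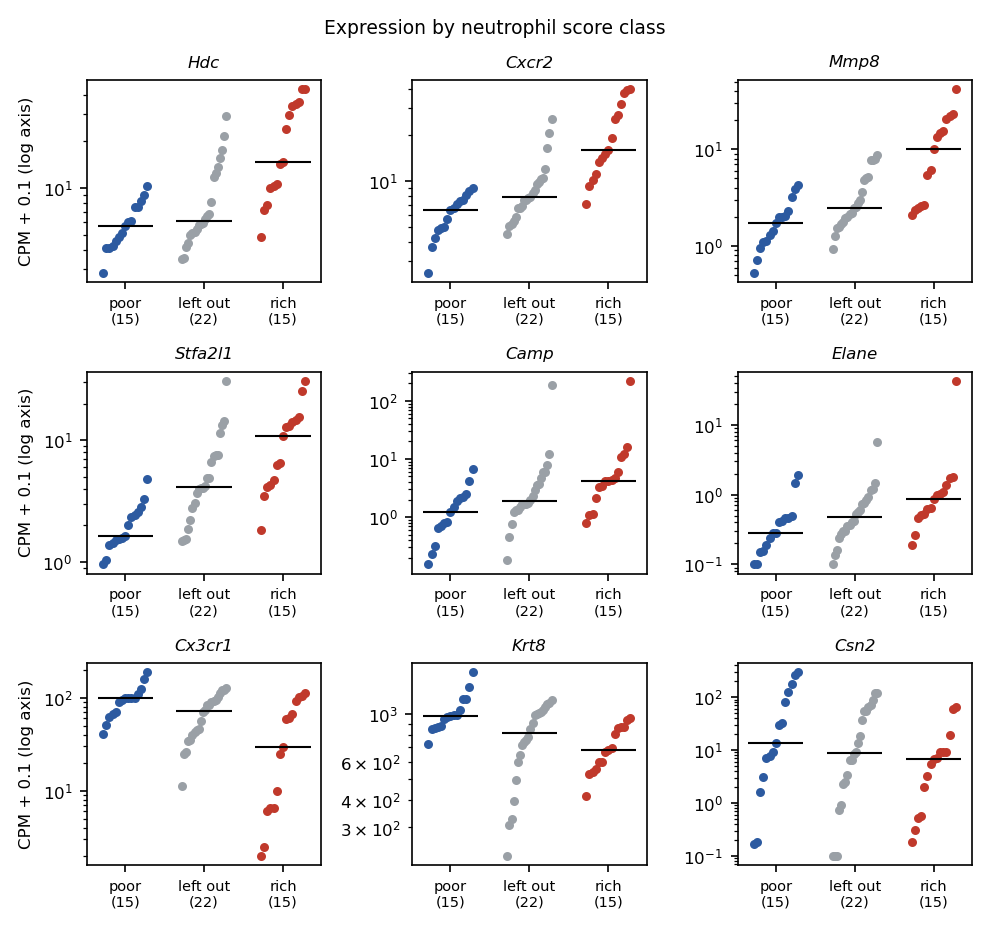
Level of 9 genes (vertical log axis, CPM + 0.1) in the 15 neutrophil-poor, 22 left-out and 15 neutrophil-rich tumours; each point is a tumour and each line a median. Hdc, Cxcr2, Mmp8 and Stfa2l1 sit higher in the neutrophil-rich class and Krt8 lower, while the highest Camp and Elane values are single tumours, 222 and 42.9 CPM in aged isotype replicate 7.

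The class label was set beside a list of 30 mature neutrophil genes other than the markers, all of them measured. The list was chosen with earlier results of these data known, so its values describe the classes and are no independent check of the label. Of these, 23 were at least 2-fold higher and 0 at least 2-fold lower, beside 4.33% and 0.777% of all genes, and 27 were higher in 5 or 6 of the 6 groups, beside 12.0% of all genes. The median log2 difference was 1.56, against -0.003 over all genes. It was 1.5 without aged isotype replicate 7, 1.36 without young anti-CTLA4 and 1.43 within groups and batches. Ly6g, the surface protein by which mouse neutrophils are usually sorted, was scarce: it ran from 0.172 to 8.96 CPM (median 2.16) in neutrophil-rich and from 0 to 1.84 (median 0.232) in neutrophil-poor tumours, a log2 difference of 1.82 ± 0.46. One member went the other way. Padi4, the enzyme that citrullinates histones in neutrophils, had a log2 difference of -0.42 ± 0.08 and was lower in the neutrophil-rich tumours of all 6 groups; it was singled out after its values were seen.

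Granule genes of immature granulocytes were higher too, but at low levels and with much of the spread in 1 tumour. Of 17 listed genes, 16 were measured (Fcnb was not), and 8 of these were at least 2-fold higher (4.33% of all genes), 0 at least 2-fold lower (0.777%), and 13 higher in 5 or 6 groups (12.0%). The median log2 difference was 1.15, and 0.85 without aged isotype replicate 7. Camp, the cathelicidin of secondary granules, ran from 0.690 to 222 CPM (median 4.14) against 0.0536 to 6.68 (median 1.12). Its log2 difference was 2.16 ± 0.59, and 1.63 without that tumour. Elane, neutrophil elastase, ran from 0.0863 to 42.9 CPM (median 0.775) against 0 to 1.82 (median 0.186), so that 1 neutrophil-rich tumour, aged isotype replicate 7, lay above the neutrophil-poor range. Its log2 difference was 1.70 ± 0.68, and 1.15 without that tumour. Mpo, myeloperoxidase, went from 1.39 ± 0.56 to 0.90 and Ctsg, cathepsin G, from 1.90 ± 0.54 to 1.39 when that tumour was left out. Olfm4, olfactomedin 4 of secondary granules, separated more of the tumours: 13 of 15 neutrophil-rich tumours lay above all neutrophil-poor ones. Its medians were 1.03 and 0.343 CPM and its log2 difference 2.12 ± 0.33. The highest Olfm4 value, 9.05 CPM, was again in aged isotype replicate 7, against at most 1.98 CPM in any other tumour. Ngp, the neutrophilic granule protein, differed by 1.94 ± 0.64, and Ltf, lactoferrin, by 0.92 ± 0.53. Both were highest in aged isotype replicate 7, at 257 and 111 CPM, against at most 106 and 93.5 CPM in any other tumour.

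Chemokines that attract neutrophils differed unevenly. Of 13 measured genes of chemokines and growth factors, 5 were at least 2-fold higher (Cxcl3, Ppbp, Cxcl5, Cxcl12 and Cxcl2), beside 4.33% of all genes. Of the same 13, 0 were at least 2-fold lower, beside 0.777%, and the median log2 difference was 0.59. The listed genes Il17a, Il17f and Il22 did not pass the filter on low counts. Cxcl5, a ligand of CXCR2, ran from 1.5 to 46.1 CPM (median 7.89) in neutrophil-rich and from 1.08 to 4.36 (median 1.77) in neutrophil-poor tumours, with a log2 difference of 2.23 ± 0.37. It was higher in all 6 groups, and 9 neutrophil-rich tumours lay above every neutrophil-poor one. Cxcl3 and Cxcl2, further CXCR2 ligands, differed by 2.46 ± 0.49 and 2.02 ± 0.46, yet each was higher in only 4 of the 6 groups. The differences of their mean log2 levels between classes were 2.91 and 5.13 in young isotype, 3.30 and 3.38 in young anti-PD-L1 and 4.00 and 2.12 in young anti-CTLA4, and -0.90 and -0.07 in aged isotype. Ppbp, a platelet-borne member of the family, differed by 2.39 ± 0.41 at medians of 0.955 and 0.161 CPM. Cxcl5, Ppbp, Pf4, Cxcl3, Cxcl1 and Cxcl2 lie together on mouse chromosome 5 between positions 90759360 and 90905938 (GRCm38, GENCODE vM21).

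Cxcl1, another CXCR2 ligand, overlapped widely, at 5.37 to 36.7 CPM (median 9.18) against 2.36 to 16 (median 8.26), with a log2 difference of 0.75 ± 0.30. Csf3, granulocyte colony-stimulating factor itself, ran from 14.7 to 114 CPM (median 32.9) against 11.0 to 45.1 (median 31.1) and was higher in 3 of 6 groups, with a log2 difference of 0.34 ± 0.23. Cxcl12, which retains granulocytes in the marrow through CXCR4, ran from 15.7 to 512 CPM (median 123) against 12.2 to 98.7 (median 28.3), with a log2 difference of 2.12 ± 0.37; its receptor gene Cxcr4 differed by 0.59 ± 0.16 and was higher in all 6 groups.

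Inflammatory cytokine genes were moderately higher. Of 13 measured, 3 were at least 2-fold higher, beside 4.33% of all genes, namely Ccl3 (1.38 ± 0.24), Il1rn (1.02 ± 0.19) and Ccl4 (1.01 ± 0.21). Of the same 13, 0 were at least 2-fold lower, beside 0.777%, and the median was 0.61. Ccl3 and Ccl4 encode CC chemokines made by activated myeloid cells, and Il1rn the natural antagonist of the interleukin 1 receptor. Il1b, interleukin 1 beta, ran from 52.5 to 234 CPM (median 127) against 37.5 to 124 (median 76.4), with 9 neutrophil-rich tumours above every neutrophil-poor one and a log2 difference of 0.77 ± 0.19. Il6 differed by 0.90 ± 0.22 and was higher in all 6 groups, and Tnf by 0.61 ± 0.14. Of 13 acute phase and NF-kB response genes, 1, Saa3, a serum amyloid A gene, was at least 2-fold higher, at 1.13 ± 0.23, beside 4.33% of all genes.

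Genes by which myeloid cells are said to restrain T cells gave a median of 0.37, with 1 of 13 at least 2-fold higher, beside 4.33% of all genes. That gene was Nos2, the inducible nitric oxide synthase, which ran from 3.47 to 139 CPM (median 27.1) against 0.684 to 69.7 (median 6.75) and differed by 1.47 ± 0.38. Arg1, arginase 1, overlapped almost wholly, at 205 to 1674 CPM (median 805) against 227 to 1269.7 (median 661), and differed by 0.26 ± 0.19. Cd274, which encodes PD-L1, ran from 17.8 to 150 CPM (median 62.5) against 11.7 to 85.9 (median 32.6), differed by 0.85 ± 0.17 and was higher in 5 of 6 groups. Arg2 and Wfdc17 differed by 0.68 ± 0.12 and 0.79 ± 0.18.

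Genes of the NADPH oxidase and of the rest of the S100 family differed little, and integrin and adhesion receptor genes were moderately higher. The 6 subunit genes of the phagocyte NADPH oxidase, which makes superoxide, had differences from 0.11 to 0.32, the largest being Ncf4 at 0.32 ± 0.09. Their median was 0.26, and 0.11 without young anti-CTLA4. All 8 measured integrin and adhesion receptor genes had a difference above 0, beside 49.5% of all genes. Their median was 0.52, and 0.36 without young anti-CTLA4. Cd177, a surface protein of neutrophils, was the 1 member at least 2-fold higher (1.42 ± 0.42, and 1.04 without aged isotype replicate 7), beside 4.33% of all genes. Itgam, which encodes CD11b, differed by 0.51 ± 0.13. The 9 other genes of the S100 family measured had a median of 0.05 and a range from -0.22 for S100a6 to 0.42 for S100a14.

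**Figure D3:**
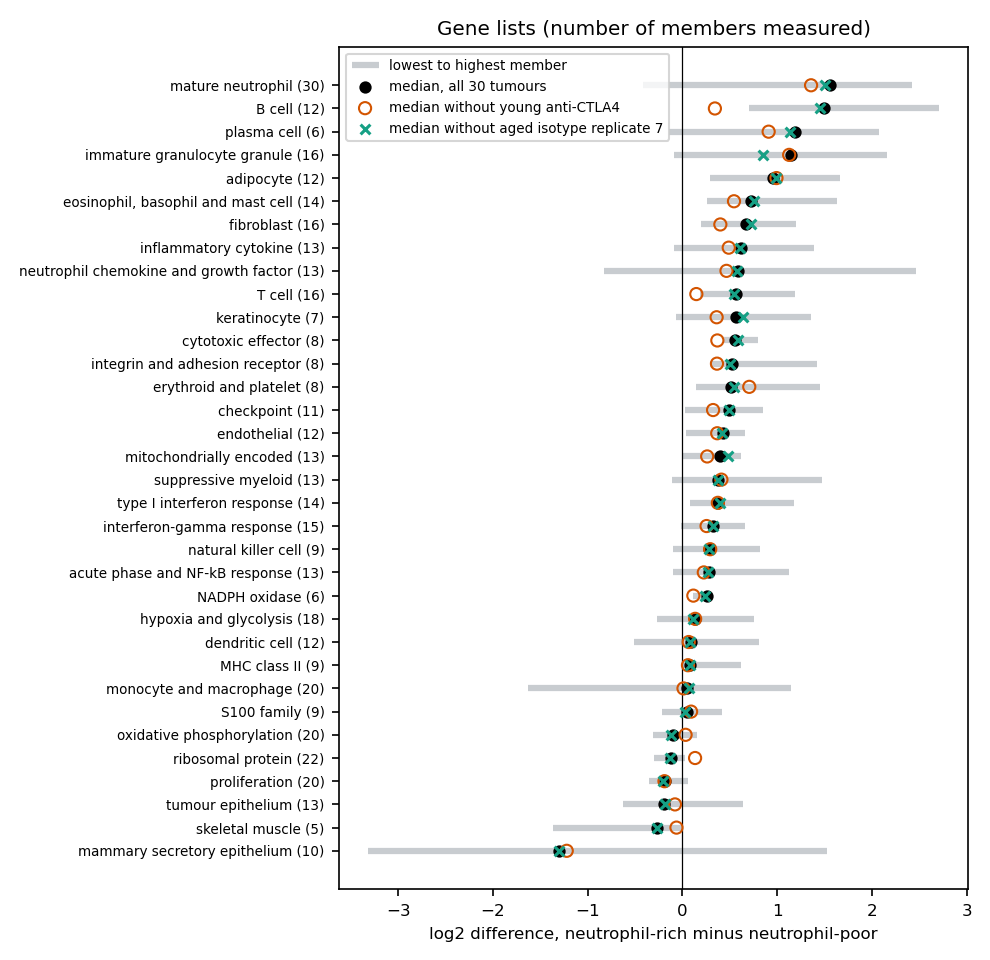
Log2 difference (horizontal axis, neutrophil-rich minus neutrophil-poor) of the members of each gene list, with the number of members measured; grey bars run from the lowest to the highest member and black points are medians over all 30 tumours. Open circles leave out young anti-CTLA4 and crosses leave out aged isotype replicate 7; the mature neutrophil median stays between 1.36 and 1.56, while the B cell median goes from 1.5 to 0.34 without young anti-CTLA4.

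Markers of other leukocytes moved with the class to differing degrees, and their part in the results above was not tested. Monocyte and macrophage genes had a median of 0.05 over 20 genes, with summed levels of 7647 to 13773 CPM in neutrophil-rich and 9051 to 15417 CPM in neutrophil-poor tumours. Of these, Gpnmb (1.15 ± 0.30), Plac8 and Cd163 (1.10 ± 0.33) were at least 2-fold higher, beside 4.33% of all genes, and Cx3cr1 at least 2-fold lower, beside 0.777%. Adgre1, which encodes the macrophage marker F4/80, differed by 0.04 ± 0.13. All 14 eosinophil, basophil and mast cell genes had a difference above 0, beside 49.5% of all genes. At least 2-fold higher were 5 of them (Epx, Prg2, Ear1, Ear6 and Mcpt4), beside 4.33%. The median was 0.72, with summed levels of 61.4 to 314 CPM against 37.0 to 174 CPM. Mcpt4, a mast cell protease, differed by 1.07 ± 0.22 and was higher in all 6 groups. Prg2, major basic protein, ran from 0.518 to 120 CPM (median 6.81) against 0.325 to 15.6 (median 1.85), with its highest value in aged isotype replicate 7. Its log2 difference was 1.40 ± 0.57, and 0.99 without that tumour. Dendritic cell genes and MHC class II genes had medians of 0.09 and 0.08.

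Among lymphocyte genes, all 12 B cell genes had a difference above 0, beside 49.5% of all genes, and 9 were at least 2-fold higher, beside 4.33%. But none was higher in 5 or 6 groups, beside 12.0% of all genes. Their summed levels of 11.1 to 765 CPM and 11.0 to 459 CPM overlapped almost wholly. The B cell median was 1.5, and 0.34 without young anti-CTLA4. Of 6 plasma cell genes, Pou2af1, Jchain and Mzb1 were at least 2-fold higher, with SE of 1.08, 0.93 and 0.85, beside 4.33% of all genes. The plasma cell median was 1.18, and 0.91 without young anti-CTLA4. The T cell median was 0.57 over 16 genes, all above 0 beside 49.5% of all genes, and 0.15 without young anti-CTLA4. Il7r was the 1 T cell gene at least 2-fold higher, at 1.18 ± 0.31, beside 4.33% of all genes. Cd8a, the CD8 chain of cytotoxic T cells, ran from 3.76 to 50.6 CPM (median 12.8) against 1.98 to 31.3 (median 10.2), with a log2 difference of 0.44 ± 0.38, and was higher in 2 of 6 groups. Cytotoxic effector genes had a median of 0.56, or 0.37 without young anti-CTLA4, with Prf1, perforin, at 0.79 ± 0.25 and Ifng at 0.60 ± 0.28. The interferon-gamma-induced chemokine gene Cxcl9 was at 49.0 to 277 CPM (median 171) against 28.9 to 431 (median 169), with a log2 difference of -0.01 ± 0.26. Among 14 type I interferon response genes, 1, the antiviral oligoadenylate synthetase Oas2, was at least 2-fold higher (1.17 ± 0.24), beside 4.33% of all genes. The list's median was 0.37. Of 11 checkpoint genes, none was at least 2-fold different, beside 4.33% higher and 0.777% lower of all genes, and Ctla4 differed by 0.85 ± 0.26.

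Genes of the fat pad and stroma were higher in neutrophil-rich tumours. All 12 adipocyte genes had a difference above 0, beside 49.5% of all genes, with a median of 0.95 and 0.99 without young anti-CTLA4. Their summed levels were 397 to 1595 CPM against 229 to 1134 CPM. Of the 12, 4 were at least 2-fold higher, beside 4.33% of all genes. The members at least 2-fold higher were Lep, leptin (1.66 ± 0.33), Lpl, lipoprotein lipase (1.22 ± 0.30), Plin4 (1.22 ± 0.32) and Fabp4, the fatty acid binding protein of adipocytes (1.03 ± 0.24). Fabp4 ran from 153 to 671 CPM (median 363) against 69.5 to 491 (median 124), and all 15 neutrophil-rich tumours lay above the neutrophil-poor median. Fibroblast genes had a median of 0.67, and 0.40 without young anti-CTLA4. Dcn, decorin, was the 1 of 16 fibroblast genes at least 2-fold higher, at 1.19 ± 0.25, beside 4.33% of all genes. Col1a1, a collagen I chain, differed by 0.82 ± 0.34 and was higher in 3 of 6 groups. Endothelial genes had a median of 0.42, with Pecam1 at 0.54 ± 0.15. Haemoglobin and platelet genes had a median of 0.52, and Pf4, platelet factor 4, differed by 1.45 ± 0.24 in the same direction in all 6 groups. Of 7 measured keratinocyte genes, Sprr1a and Krt5 were at least 2-fold higher, beside 4.33% of all genes.

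The main keratin genes of the carcinoma epithelium were lower. Krt8 and Krt18, the paired keratins of simple epithelium, ran from 420 to 950 and from 388 to 1180.2 CPM in neutrophil-rich tumours (medians 680 and 755), against 724 to 1551 and 835 to 1458 CPM in neutrophil-poor tumours (medians 975 and 1155). Every neutrophil-rich tumour lay below the neutrophil-poor median for Krt8, and 14 of 15 did for Krt18. The log2 differences were -0.54 ± 0.11 and -0.62 ± 0.13, and Krt8 was lower in all 6 groups. Epcam, an adhesion molecule of epithelium, differed by -0.37 ± 0.08. Of 13 tumour epithelium genes, 3 had a difference above 0, beside 49.5% of all genes, none was 2-fold lower, beside 0.777%, and the median was -0.20, or -0.08 without young anti-CTLA4. Proliferation genes had a median of -0.18, with 17 of 20 below 0 and 3 above, beside 49.5% of all genes above 0. Their largest difference was in Cdc20, an activator of the anaphase-promoting complex, at -0.36 ± 0.11. Nuclear genes of oxidative phosphorylation and ribosomal protein genes had medians of -0.10 and -0.12, which were 0.03 and 0.13 without young anti-CTLA4. Mitochondrially encoded genes had a median of 0.39, which was 0.26 without young anti-CTLA4 and 0.16 within groups and batches.

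Genes of lactating mammary epithelium were the list with the largest lower median, at -1.30 over 10 genes. Of these, 5 were at least 2-fold lower, beside 0.777% of all genes. They were the casein genes Csn1s2a (-3.32 ± 0.91), Csn2 (-1.95 ± 0.76) and Csn1s1 (-1.93 ± 0.87), and the whey protein genes Wap (-3.07 ± 0.87) and Lalba (-1.70 ± 0.60). Glycam1, also secreted in milk, had a difference of 1.53 ± 2.14. These genes were near 0 in some tumours of both classes and high in a few: Csn2 ran from 0.0858 to 65.5 CPM (median 6.54) against 0.0684 to 296 (median 13.3). Skeletal muscle genes had a median of -0.27, and -0.06 without young anti-CTLA4. Of 5 measured, Tnnt3, a troponin of fast muscle, was at least 2-fold lower (-1.37 ± 0.43), beside 0.777% of all genes.

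Only 15 genes met the rule for leading lower genes. Cx3cr1, the fractalkine receptor of monocytes and macrophages, was one of them. It ran from 1.89 to 112 CPM (median 29.4) in neutrophil-rich and from 40.1 to 188 (median 97.9) in neutrophil-poor tumours, was lower in the neutrophil-rich class of all 6 groups, and had a log2 difference of -1.63 ± 0.44. The class gap was uneven: the difference of mean log2 levels was -4.15 in young anti-PD-L1 and -3.26 in young anti-CTLA4, and between -1.01 and -0.15 in the other groups. The others were Adamts8, a secreted metalloprotease (-1.01 ± 0.30), lower in all 6 groups, and 13 genes that were higher in 1 of 6 groups: Csn1s2a, Csn2 and Csn1s1, Nipal4 (-1.15 ± 0.27), Rflna (-1.14 ± 0.33), the prolactin family gene Prl3d2 (-2.08 ± 0.65), Sertm1, Myrip, Styx, Grip2, Zfp781, Zbed6 and the unnamed gene ENSMUSG00000102156. Several of the 15 were at low levels. Over all tumours but aged isotype replicate 7, the median was 0 CPM for Zfp781, 0.665 for Prl3d2 and 0.988 for Sertm1. For Myrip, Nipal4 and Rflna it was 1.22, 1.34 and 1.39 CPM. Grip2 had a median of 6.59 CPM there and a highest value of 706 CPM. Without young anti-CTLA4 the median difference of the 15 genes went from -1.23 to -0.70. Those of Cx3cr1 and Csn1s2a were then -1.11 and -2.24, those of Nipal4, Rflna, Adamts8, Myrip and Styx lay between -0.65 and -0.36, and that of Grip2 was -1.46.

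The 22 tumours left out by the rule belonged to neither class, but the rule had ranked them by the same score. A slope on that score describes genes that varied with the 3 markers in other libraries. It is no check independent of those markers. In these 22 tumours the slope of each gene on the score was fitted with group as a block, in log2 units per unit of score. It was tested with edgeR's quasi-likelihood F test. No gene passed a Benjamini-Hochberg adjusted p of 0.05 in either direction (0% of 17896). At an unadjusted p under 0.05, 870 genes (4.86%) had a slope above 0 and 1435 (8.02%) a slope below 0, and without young anti-CTLA4 replicate 8 these counts were 288 and 425. For both directions together the count was 2305, and 1083 without libraries of TMM factor under 0.8. DESeq2 called 12 genes up and 5 down after adjustment, and limma on log2(TPM + 1) called 1 up and 0 down. The smallest adjusted p in edgeR was 0.169, for BC100530, with a slope of 1.99 ± 0.33 and an unadjusted p of 9.43e-06. Ifitm6 (slope 1.42 ± 0.29) and Stfa2 (slope 1.94 ± 0.41) followed among slopes above 0, and Mob3b (-1.16 ± 0.23), Atf2 (-0.62 ± 0.14) and Prl3d2 (-2.95 ± 0.66) led those below 0.

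Members of the mature neutrophil list had a slope above 0 in 28 of 30, beside 51.0% of all genes, with a median of 0.69 against 0.01 over all genes. At an unadjusted p under 0.05, 14 had a slope above 0 and 1 below, and without young anti-CTLA4 replicate 8 the counts were 9 and 0. Among the leading genes, Hdc had a slope of 0.64 ± 0.19, Asprv1 1.19 ± 0.27, Stfa2l1 1.59 ± 0.40, Cxcr2 0.62 ± 0.24 and Mmp8 0.52 ± 0.28. Granule genes had a median slope of 0.85, with 12 of 16 above 0, beside 51.0% of all genes. Young anti-CTLA4 replicate 8 carried part of these slopes. It held 188 CPM of Camp, against at most 12.3 CPM in the other 21 left-out tumours, and 136 CPM of Prg2 against at most 15.5. Without it the slope of Camp went from 2.71 to 1.52, that of Prg2 from 1.90 to 0.52 and that of Ly6g from 1.33 to 0.24, and the granule median from 0.85 to 0.59. The mature neutrophil median went from 0.69 to 0.63, with 28 of 30 slopes still above 0, that of Hdc was 0.74 ± 0.21 and that of BC100530 1.81 ± 0.40. Tumour epithelium genes had a median slope of -0.36, and -0.17 without that tumour, with Krt8 at -0.78 ± 0.29. Slopes of the milk protein genes were below 0, at -5.05 ± 1.23 for Csn1s2a and -3.54 ± 1.14 for Csn2. The adipocyte median slope was 0.29 and the fibroblast median 0.01, and they were 0.46 and 0.28 without that tumour. Mitochondrially encoded and skeletal muscle genes had median slopes of -0.23 and 0.67, or 0.05 and 0.59 without that tumour. The ribosomal protein genes, whose difference between the chosen tumours was below 0 in 21 of 22, had a slope above 0 in 22 of 22, beside 51.0% of all genes. Their median was 0.74, or 0.48 without that tumour. Young isotype replicate 6 and young anti-CTLA4 replicate 8, the left-out tumours of highest score in their groups, had TMM factors of 0.618 and 0.735. Their gene levels fell most with gene length among the 22, with log2 trends of -0.450 and -0.400. The part of this library composition in the slopes was not tested.

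**Figure D4:**
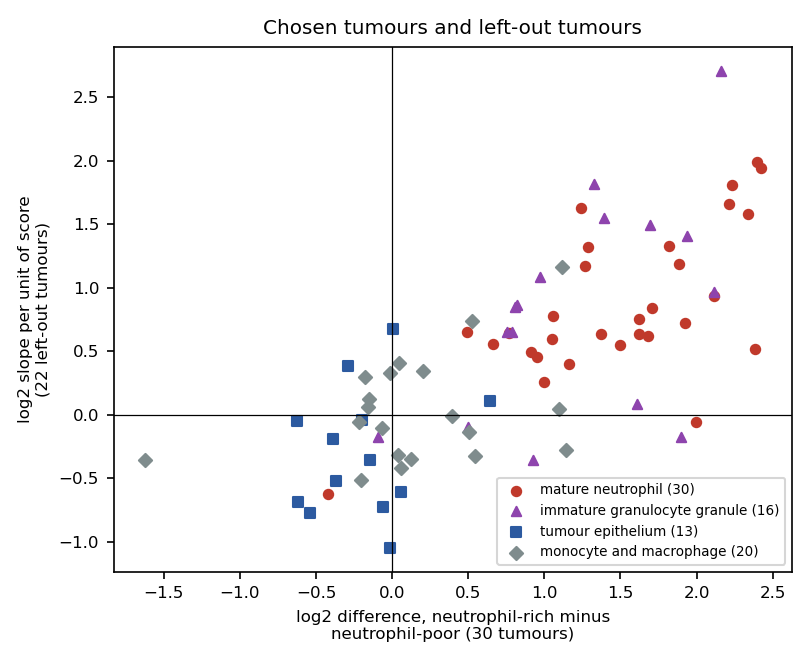
Log2 slope on the score in the 22 left-out tumours (vertical axis) against the log2 difference between classes in the 30 chosen tumours (horizontal axis); each point is a gene of the list its colour and shape name. Mature neutrophil genes lie mostly in the upper right, with slopes above 0 in 28 of 30, and monocyte and macrophage genes scatter around 0.

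The difference between the classes was compared between aged and young hosts by an interaction term in the fit to the 30 tumours. With edgeR's quasi-likelihood test, 3 of 17896 genes passed an adjusted p of 0.05 (0.0168%), and 1826 (10.2%) had an unadjusted p under 0.05. In all 3 the difference between classes was smaller in aged hosts. They were the chemokine gene Cxcl5, its receptor gene Cxcr2, and Mmp3, stromelysin 1, a matrix metalloproteinase of stromal cells. These p rest on classes set by measured values. The score gap itself was also smaller in 2 of the 3 aged groups than in any young group. For a gene that follows the score, an effect of age and the smaller gap cannot be told apart, and the part of the gap in these differences was not tested.

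Cxcl5 in the neutrophil-rich class stood at 3.71 and 7.89 CPM in young isotype, at 16.7, 18.9 and 21.9 in young anti-PD-L1 and at 17.7, 32.5, 40.6 and 46.1 in young anti-CTLA4. In aged hosts it stood at 1.5 and 6.81 in isotype, 2.23 and 3.58 in anti-PD-L1, and 2.40 and 4.23 in anti-CTLA4. Neutrophil-poor tumours lay between 1.08 and 4.36 CPM at both ages, so the classes separated in each young group and overlapped in each aged group. The aged minus young difference was -2.75 ± 0.46 on the log2 scale, with an adjusted p of 0.0222 in edgeR. Cxcr2 in neutrophil-rich tumours ran from 10.0 to 39.7 CPM in young and from 6.91 to 15.8 in aged hosts, and the aged minus young difference was -1.47 ± 0.25 (edgeR adjusted p = 0.0254). In young hosts the classes of Cxcr2 separated in every group, and in aged anti-PD-L1 they overlapped. Mmp3 in young isotype was at 44.8 and 111 CPM in neutrophil-rich and at 30.6 and 32.2 in neutrophil-poor tumours, and in aged anti-CTLA4 at 92.4 and 127 against 89.8 and 135. Its aged minus young difference was -1.67 ± 0.27 (edgeR adjusted p = 0.0217). With a batch term 1 gene passed, and without young anti-CTLA4, young anti-PD-L1 or aged anti-PD-L1 none did. The differences of these 3 genes stayed at -1.24 or below in every alternative fit tried. Those fits reuse the tumours in which the 3 genes were picked by small p, so this adds no support.

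**Figure D5:**
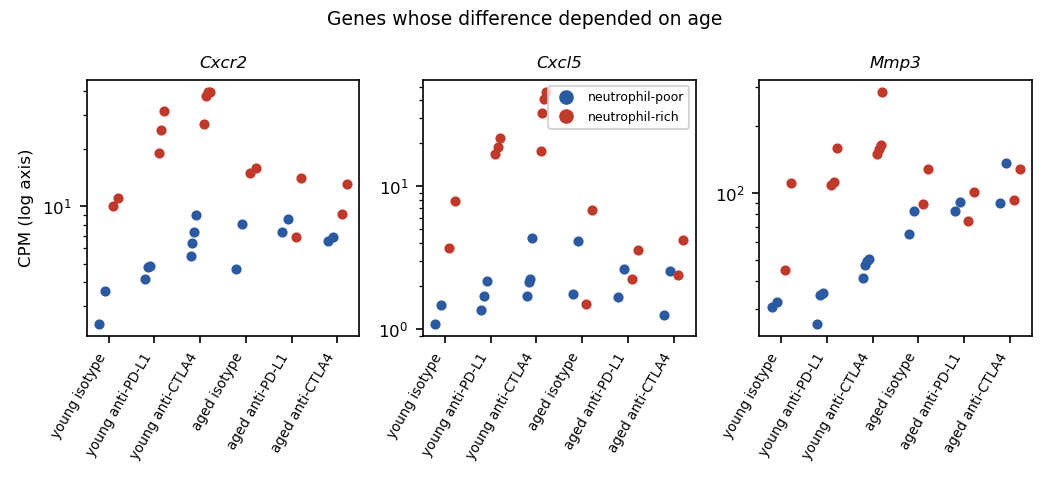
Level of Cxcr2, Cxcl5 and Mmp3 (vertical log axis, CPM) in the neutrophil-poor (blue) and neutrophil-rich (red) tumours of each group; each point is a tumour. In the 3 young groups red points lie above all blue points, and in aged anti-PD-L1 and aged anti-CTLA4 the colours overlap for Cxcl5 and Mmp3.

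Since tumours were ranked within groups, the score could be compared between groups over all 52 tumours. The 7 comparisons used exact two-sided permutation tests of the difference of means, with p adjusted over the 7. The score was lower in aged than in young hosts under anti-CTLA4, at 6.02 ± 0.59 (SD, n = 8) against 7.65 ± 1.11 (SD, n = 12), a difference of -1.63 (exact permutation p = 0.00175, adjusted 0.0122). Under anti-PD-L1 it was 6.01 ± 0.55 (SD, n = 8) against 7.14 ± 0.87 (SD, n = 10), a difference of -1.12 (exact permutation p = 0.00658, adjusted 0.0230). In both, 0 of the 8 aged tumours lay above the median of the young ones. The anti-PD-L1 groups shared no sequencing batch, so age and batch cannot be told apart there. In batch 1 alone the anti-CTLA4 difference was -2.01 with 7 aged and 4 young tumours (exact permutation p = 0.00606). Under isotype, aged and young tumours scored 6.62 ± 1.13 and 6.38 ± 0.76 (SD, n = 7 each), a difference of 0.24 (exact permutation p = 0.696), and -0.16 without aged isotype replicate 7. The isotype groups shared no sequencing batch either, with young tumours in batch 2 and aged ones in batches 1 and 3. Age and batch cannot be told apart in this comparison.

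In young hosts the score was higher under anti-CTLA4 than under isotype by 1.27 (exact permutation p = 0.0178, adjusted 0.0416), with 9 of 12 treated tumours above the isotype median. All young isotype tumours came from batch 2. The 3 young anti-CTLA4 tumours of that batch scored 5.64, 6.27 and 6.89, and the difference within batch 2 was -0.11 (exact permutation p = 0.8), so the pooled difference did not hold within the batch the groups shared. Anti-PD-L1 and isotype differed by 0.76 in young hosts (exact permutation p = 0.0836, adjusted 0.146). In aged hosts anti-PD-L1 and anti-CTLA4 lay below isotype by differences of -0.61 and -0.60 (exact permutation p = 0.208 and 0.238, each adjusted to 0.278).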

How the data were processed

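RNA of 52 tumours was sequenced on a NextSeq500 as paired reads of 75 bases from TruSeq Stranded mRNA libraries made with 500 ng of RNA, per the labels' protocols. The authors deposited an estimated count and a TPM value per gene and library; Salmon, DESeq2 and mm10 are named in the submitters' processing notes, while the sources used here do not say how transcripts were summed to genes. The deposited estimated counts were whole numbers. Symbols were taken from GENCODE vM21.

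Libraries were grouped by the labels, and the score used TPM with a pseudocount of 1. Genes kept by edgeR's filterByExpr (17899, of which 17896 are not markers) were fitted by edgeR 4.0.16 in R 4.3.3 with TMM factors from all 52 libraries and group as a block. Differences between the classes carry no p, since the classes were set by measured values. Slopes in the 22 left-out tumours and the interaction with age were tested by quasi-likelihood with Benjamini-Hochberg adjustment over all genes, and scores between groups by exact two-sided permutation tests. The age test used the same classes set by measured values, so its p share that limit. Named genes were the 15 per direction of largest log2 difference relative to SE, with a mean of at least 1 CPM, at least 2-fold different and in the same direction in at least 5 of 6 groups, leaving out predicted models; up to 4 of largest such ratio per gene list; 18 genes of neutrophil biology, immunity and stroma named in any case; and the 3 of smallest p per direction of the slope and of the age test where under 5 passed. Other genes, such as those that complete a count of 5 or fewer, were named after their values were seen. The members and all gene lists were chosen with earlier results of these data known.

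Alternatives were DESeq2 1.42.0, limma 3.58.1 on log2(TPM + 1), other size factors, no filter, a batch term, a replicate block, other definitions of score and class, and leaving out groups or single libraries. Methods were tested on simulated data. Total counts ran from 9549847 to 53778370. Over 209 within-group pairs of libraries, the lowest ratio of chi-square to its degrees of freedom was 21.9, so none were treated as copies. A named gene of 1 list is not reported here.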

Additional observations from a re-analysis of the deposited data

Results flagged for a closer look

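Dixon's criterion for an extreme value far from the rest was applied to the score and 3 marker levels in each group of at most 10 tumours. Young anti-CTLA4, with 12 tumours, was thus left out. Of the 20 sets of values, 4 met the criterion, which chance alone meets in about 1 of 20 independent sets. These sets were not independent, since the score is the mean of the markers and S100a8 followed S100a9 (Pearson r = 0.986 within groups). The count of 4 can therefore not be set against that rate. Of these, 3 were aged isotype replicate 7, with a score of 9.06, 3463 TPM of S100a8 and 4500 TPM of S100a9. The fourth was young isotype replicate 6, with 3.57 TPM of Csf3r and the nearest tumour of its group at 7.36 TPM.

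The difference between neutrophil-rich and neutrophil-poor tumours was smaller in aged than in young hosts for Cxcr2 (-1.47 on the log2 scale), Cxcl5 (-2.75) and Mmp3 (-1.67), by the interaction term in edgeR. With the sequencing batch as a term, Cxcl5 still passed in edgeR (-2.69, adjusted p = 0.0431), while Cxcr2 (-1.35, adjusted p = 0.216) and Mmp3 (-1.60, adjusted p = 0.0567) did not. The part of the smaller score gap in these differences was not tested.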

How the results depend on the processing

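The counts of genes at least 2-fold higher and lower, 775 and 139, moved by over 1.5 times without the filter on low counts (3546 and 1047), with limma (200 and 31), without aged anti-CTLA4 (1213 and 209) and without young anti-CTLA4 (469 and 78, or 490 and 81 without aged isotype replicate 7 as well). Single counts moved with 1179 higher for a score without S100a9, 119 higher for classes split at the middle of each group, 75 lower for a score without Csf3r and 90 lower within groups and batches. With classes split at the middle of each group the differences of Cr2 and Jchain were -1.24 and -1.0. Leaving out single tumours gave 681 to 994 higher and 112 to 166 lower.

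The count of 3 age genes was 145 with DESeq2, 7 without the filter, 1 with a batch term, 1 with limma, 34 without aged anti-CTLA4, 241 without young isotype, 90 without libraries of TMM factor under 0.8, and 0 without aged anti-PD-L1, young anti-CTLA4 or young anti-PD-L1; leaving out single tumours gave 0 to 90. Slope counts were 12 and 5 with DESeq2, 1 up with limma and 1312 and 1478 for a score without Csf3r; leaving out single tumours gave 0 to 1 up and 0 to 3 down. The cause was not tested. The young anti-CTLA4 against isotype difference in score, 1.27, was -0.11 in batch 2 alone (exact permutation p = 0.8), 1.03 with CPM in place of TPM (adjusted exact permutation p = 0.111) and 1.29 without Csf3r (adjusted exact permutation p = 0.0892); leaving out single tumours gave 1.09 to 1.45, and 11 of 19 such fits missed the threshold.

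Replicate numbers did not pair the tumours: over 113 same-numbered pairs the correlation of deviations ran from -0.543 to 0.527, and 43 exceeded 0.1. A replicate block gave 577 and 151 genes, slope counts of 962 and 1014, and 0 age genes.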
